A study of Mus musculus with 6 samples.

Results

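The cytosolic ribosomal protein genes were taken from the deposited gene table by symbol: rows named Rpl, Rps or Rplp followed by a number, plus Rpsa, without rows named as pseudogenes and without the Rps6k kinases. The rule found 83 of the 13706 listed genes. They comprised 32 small subunit genes, 42 large subunit genes, the 3 stalk genes Rplp0, Rplp1 and Rplp2, and 6 genes whose symbols mark a paralog of another member (Rps27l, Rpl7l1, Rpl22l1, Rpl36al, Rpl39l and Rps4l). GENCODE M21 annotates 81 of them as protein coding, Rps3a3 as a processed pseudogene and Rps4l as a transcribed processed pseudogene. Rpl24, Rpl3l and Rpl10l were not analysed here.

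Messenger RNA of primary mouse dermal fibroblasts had been read from its 3′ ends by QuantSeq in 6 libraries, 2 in each of 3 groups. Control cells had the genotype Yap1 fl/fl; Wwtr1 fl/fl and no Cre. Knockout (KO) cells carried R26-CAG-CreER, a tamoxifen-dependent Cre under the ubiquitous CAG promoter at Rosa26, on the same floxed alleles. The KO + H-151 cells had the KO genotype and were given H-151, an inhibitor of STING, at 1 µM. Cells of all 3 groups, controls included, were kept for 72 hr with 1 µM 4-hydroxytamoxifen in DMEM-F12 with 20% serum. Since the controls had no Cre, loss of YAP and TAZ and activity of Cre cannot be told apart. Whether replicates were separate cultures or separate animals is not stated, and p-values therefore reflect the scatter between these 6 libraries alone, which may be technical.

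Between 12444986 and 15308100 reads per library fell in listed genes, and levels are given as scaled CPM, in which 1 read was worth 0.0625 to 0.0871. Wwtr1, which encodes TAZ, stood at 213 and 218 scaled CPM in the controls, 4.79 and 5.03 in the KO libraries and 3.07 and 4.00 with H-151. Yap1 stood at 122 and 128 in control, 66.4 and 68.3 in KO cells and 45.3 and 42.4 with H-151. The sources used here do not say whether the 3′ tags lie in the deleted exons. All 9 fibroblast markers were listed, with summed levels of 29116 to 29589 in control, 33859 to 35792 in KO and 21207 to 22700 in KO + H-151. The labelled cell type was thus matched by its markers in every library. Markers of other cell types were present as well: the 8 macrophage markers summed to 1061 to 1255, 1307 to 1311 and 2737 to 3378, and the 5 adipocyte markers to 394 to 520, 445 to 543 and 1129 to 1829, in the same order of groups. In these bulk samples, fewer cells of a type and less RNA per cell cannot be told apart.

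Each ribosome carries about equal numbers of most of these proteins, on a small subunit that decodes messenger RNA and a large subunit that joins amino acids. Their mRNAs are among the most abundant of growing cells, and most begin with a C followed by a run of pyrimidines, the TOP start, through which mTORC1 and the protein LARP1 adjust translation and stability of these mRNAs as a group. YAP and TAZ are transcriptional coactivators restrained by the Hippo pathway, and STING turns the sensing of cytosolic DNA into an interferon response.

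The start sites of Rps2, the member that stood apart in KO cells, and of 5 other members described in the results are shown because the TOP start is the feature by which these mRNAs are known to be regulated together. The line for Rps2 begins at the start of transcript Rps2-201 in GENCODE M21 (chr17:24720110-24720129, plus strand, GRCm38). The others are from RefSeq on GRCm38.p6, with 10 bases before the annotated start. Rpl28 lies at chr7:4792955-4792984, Rplp2 at chr7:141447641-141447670 and Rpl38 at chr11:114668570-114668599 on the plus strand. Rps6 lies at chr4:86857348-86857377 and Rps27 at chr3:90213629-90213658 on the minus strand. Capitals mark the unbroken pyrimidine run that starts at the annotated start.
Rps2: CTTCTTCTTCTTCgggagaa
Rps6: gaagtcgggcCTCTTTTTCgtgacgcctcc
Rps27: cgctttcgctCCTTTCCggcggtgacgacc
Rpl28: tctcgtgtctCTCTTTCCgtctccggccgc
Rpl38: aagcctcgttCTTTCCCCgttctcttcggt
Rplp2: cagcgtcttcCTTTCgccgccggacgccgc
RefSeq starts were at hand for 61 members, and 13 of them (21.3%) had C at the start followed by at least 4 further C or T on the transcribed strand, against 813 of 27025 genes in that table (3.01%). With the principal transcripts of GENCODE M21 the counts were 12 of 81 members (14.8%) and 642 of 22500 genes (2.85%). The match depended on the exact base annotated as the start, and each start above was shown from the annotation in which it holds the run. RefSeq places the start of Rps2 at 24720063, 47 bases before that of Rps2-201, and has no such run there. Conversely, Rps6, Rps27, Rpl28, Rpl38 and Rplp2 have the run at the RefSeq start and not at the start of their principal transcript in GENCODE M21.

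Ribosomal protein genes were among the highest rows of the table. Their mean level over the 6 libraries ran from 4.25 scaled CPM (Rps3a1) to 1752 (Rplp1), with a median of 305, and 69 of the 83 were at 100 or above. The 5 highest were Rplp1, Rps14, Rpl4, Rps20 and Rpl37. The method reads 1 end per transcript, so the level is not divided by length. Rps3a1, Rps6, Rps10 and Rpl36al, at under 20 scaled CPM, were the 4 lowest. Rps3a3, annotated as a processed pseudogene, stood at a mean of 305, and the split of reads between it and Rps3a1 was not tested. The number of reads assigned to a member depends on how reads that map to several places were counted, which is not given in the sources used here. In 34 members at least 50% of the 50-base stretches in the last 200 bases of the main transcript occurred in transcripts of other genes, and the split of their reads with those genes is uncertain. The median level of these 34 was 219 scaled CPM, against 414 for the other 49.

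In KO cells the ribosomal protein genes stood close to control with the exception of Rps2. Of the 83 members 12 were higher in KO, where 18.2% of all 13648 genes tested were higher, and 1 was lower, where 14.2% of all genes were lower (limma, adjusted p under 0.05 over all genes tested). The share higher, 14.5%, was no larger than the background. The median log2 change of the members was 0.11, against -0.01 over all genes, and 68 members had a positive change. Both KO libraries were above both control libraries for 49 members (33.4% of all genes) and below for 4 (33.5% of all genes). Among the 2017 other genes at a mean of 100 scaled CPM or more the median was 0.06 and 27.6% were higher.

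Among the members with the largest rises were Rps24, Rpl13a, Rpl39, Rps12, Rps7, Rpl34 and Rps3, 4 small subunit and 3 large subunit genes. Rps24, a small subunit gene mutated in some cases of Diamond-Blackfan anaemia, stood at 1068 and 959 scaled CPM in control and at 1214 and 1253 in KO. The KO libraries were both above the controls, by 0.28 ± 0.07 on the log2 scale (SE, adjusted p = 0.0054). Rpl13a, whose protein is released from the ribosome to repress inflammatory transcripts in interferon-treated cells, stood at 113 and 111 in control and 132 and 139 in KO. Its groups did not overlap either, with a change of 0.27 ± 0.07 (adjusted p = 0.00902). The other 5 of these 7 had log2 changes of 0.22 to 0.26, and Rps3a3, Rpl37, Rpl31 and Rps29 were also among the 12. All 12 rested on the scaling and on single libraries. None was called under total-count scaling (12.7% of all genes) or quantile normalization (14% of all genes), where the members' median change became -0.05 and -0.07, and 3 were called under median scaling (15.6% of all genes). Lower calls then numbered 9 (29.7% of all genes), 7 (21.9%) and 2 (18.7%), Rps2 among them each time. None was called without control replicate 2 or without KO replicate 2, 2 were called without KO replicate 1, and 24 without either KO + H-151 library. Relative to the median of all genes, which total-count scaling itself moved from -0.01 to -0.16, the members' median stood 0.12 higher as deposited, 0.11 under total-count scaling and 0.03 under quantile normalization.

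**Figure D1:**
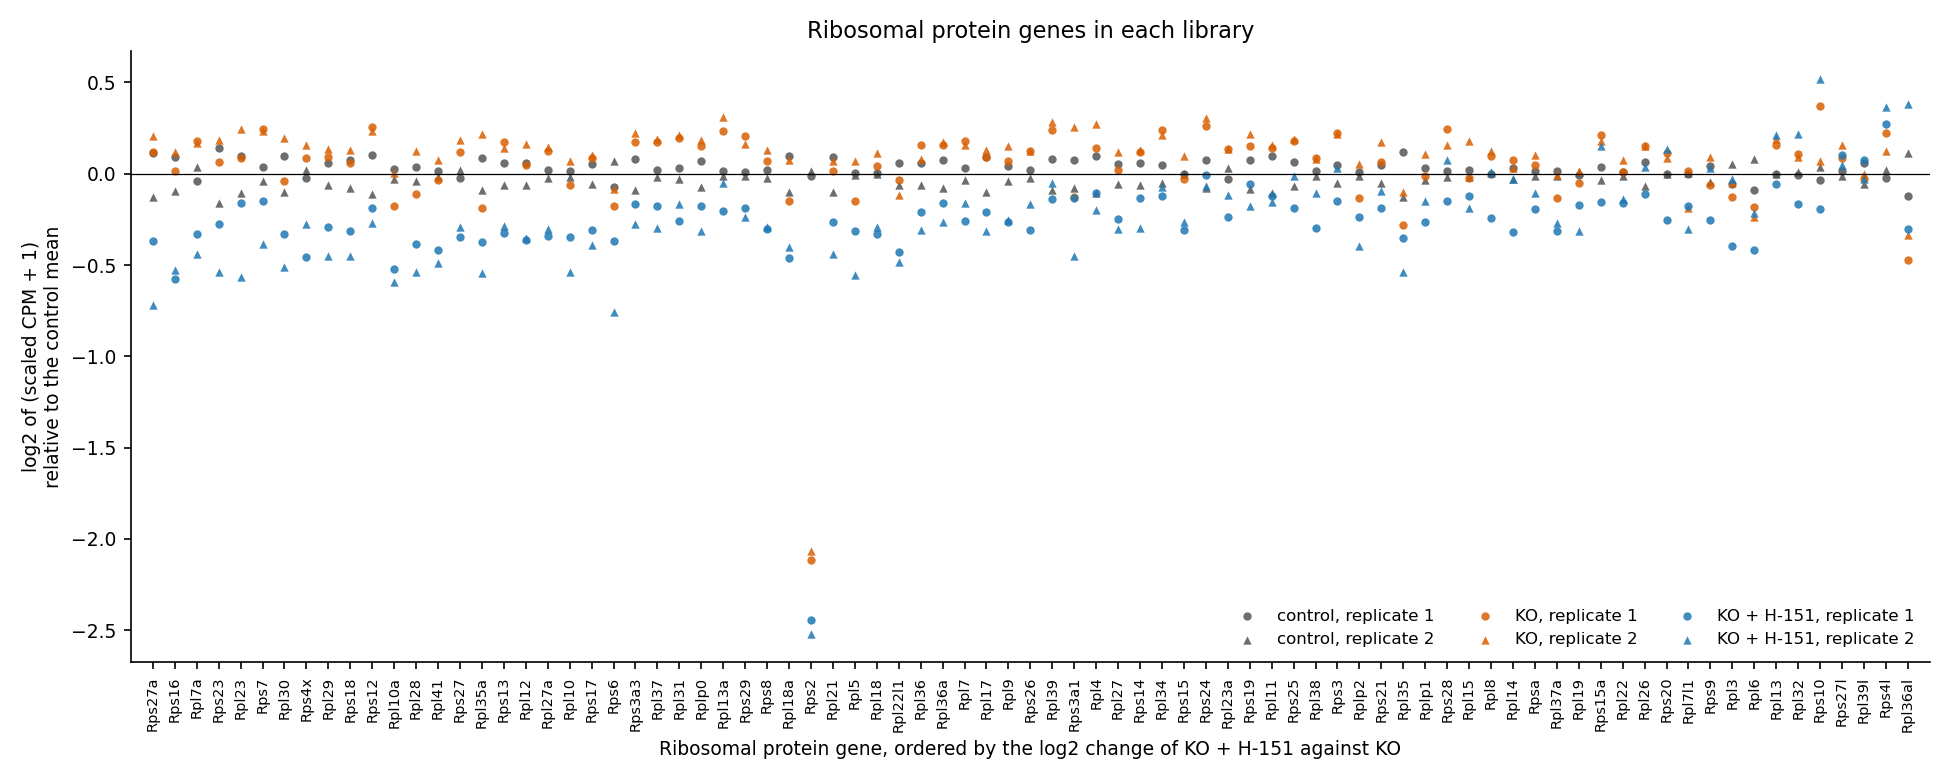
Level of 81 of the 83 ribosomal protein genes in each of the 6 libraries, as log2 of scaled CPM + 1 relative to the control mean, ordered by the change of KO + H-151 against KO; circles are replicate 1 and triangles replicate 2. Rps2 lies far below control in all 4 libraries with the KO genotype, at 23.3% of the control mean in KO and 17.7% in KO + H-151, and the KO + H-151 libraries lie below the KO libraries for 69 of the 81 genes plotted.

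Rps2 encodes uS5, a small subunit protein near the entry of the mRNA channel. It lies on chromosome 17 (24718116 to 24721929, plus strand, GRCm38). Its level was 419 and 427 scaled CPM in control, 96.9 and 100.3 in KO cells and 76.8 and 72.8 with H-151, from 5883, 5931, 1113, 1178, 1176 and 1165 reads. The KO libraries thus held 23.3% of the control mean, and no library of the KO genotype came near a control library. The log2 change in KO was -2.09 ± 0.07 (limma, adjusted p = 2.82e-13). The next lowest change among the members was -0.40 ± 0.21 for Rpl36al (adjusted p = 0.161). Over all alternatives the change of Rps2 in KO ran from -2.25 to -2.06, with adjusted p of at most 1.91e-05. Rps2 was also the sole member to change at least 1.5-fold in KO, where 16.8% of all genes did so.

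With H-151 Rps2 did not return towards control. It fell a further 0.39 ± 0.07 on the log2 scale against KO (adjusted p = 0.000182), close to the -0.37 of the members' median, and its change against control was -2.48 ± 0.07 (adjusted p = 6.91e-13). Measured against the members' median the change of Rps2 was -2.20 in KO against control and -0.02 in KO + H-151 against KO. Of the 50-base stretches in its last 200 bases 78.1% occurred in transcripts of 40 other annotated genes, and of its 11 annotated pseudogenes 0 were listed.

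The 4 nearest listed genes showed no change of this size in KO. Snhg9, a snoRNA host on the opposite strand within the Rps2 locus, stood at 81.6 and 64.9 scaled CPM in control, 62.5 and 59.4 in KO and 51.5 in each KO + H-151 library. Its log2 change in KO was -0.25 ± 0.10 (adjusted p = 0.057), and with H-151 against control it was lower, with a change of -0.49 ± 0.10 (adjusted p = 0.00148), a call lost with values centred on the members (-0.22, adjusted p = 0.12). Reads within the span of Snhg9 (24719531 to 24719965) cannot be assigned to either gene where the strand was not used in counting. That span lies before the start of Rps2-201, at 24720110, and the annotated end of Rps2 is at 24721929. The part of such reads in the level of Rps2 was not tested. Ndufb10, 131 bases away, had a change of -0.15 ± 0.08 (adjusted p = 0.154). Tbl3 was higher by 0.36 ± 0.11 (adjusted p = 0.0254), a call lost without any of the 4 control and KO libraries, and Msrb1 was lower, with a change of -0.28 ± 0.07 (adjusted p = 0.007), a call lost without control replicate 2 or KO replicate 1. The proteins known to bind or modify RPS2 were listed for 5 genes. Pdcd2, a dedicated chaperone of RPS2, rose from a mean of 19.9 ± 3.33 to 40.2 ± 2.58 scaled CPM (SD, n = 2; log2 change 0.99 ± 0.12, limma adjusted p = 7.19e-06), and Prmt3, which methylates RPS2, rose by 0.35 ± 0.12 (adjusted p = 0.0309). The other 3 did not pass the test, so that 2 of 5 were higher (40%), where 18.2% of all genes tested were higher.

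**Figure D2:**
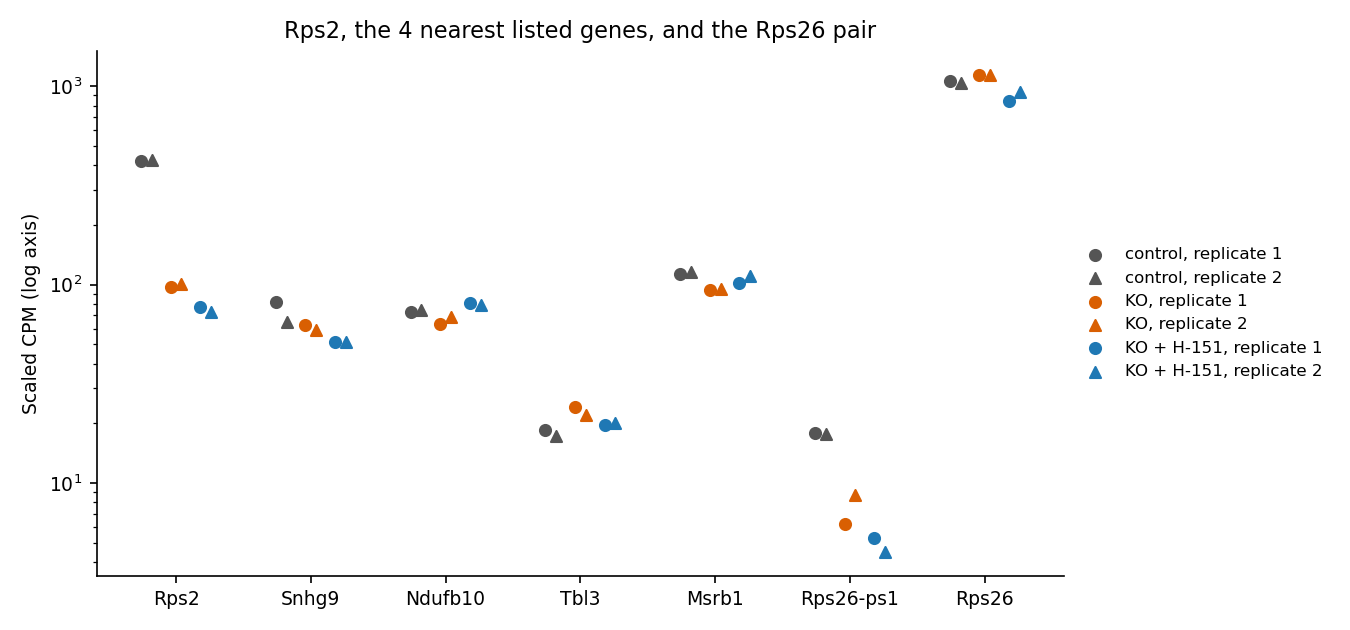
Scaled CPM on a log axis, in each library, of Rps2, its 4 nearest listed genes (Snhg9, Ndufb10, Tbl3 and Msrb1), the pseudogene Rps26-ps1 and its parent Rps26. Rps2 drops from 419 and 427 in control to between 72.8 and 100.3 in the other libraries, while the largest fall among its neighbours is that of Snhg9, from 81.6 and 64.9 to 51.5. Rps26-ps1 drops in KO and further with H-151, whereas Rps26 does not drop in KO and is lower with H-151.

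With H-151 the ribosomal protein genes were lower than in KO as a group. Of the 83 members 69 were lower (83.1%) and 0 higher, where 21.4% of all genes tested were lower and 19.4% higher (limma, adjusted p under 0.05; unadjusted, 71 members had p under 0.05). The median log2 change was -0.37, against 0.02 over all genes, and 80 members had a negative change. Both KO + H-151 libraries were below both KO libraries for 71 members (33.7% of all genes). High level went with a shift of the same sign: among the 2017 other genes at 100 scaled CPM or more the median was -0.11 and 37.7% were lower, against -0.38 and 62 of 69 members (89.9%) at that level. The individual falls were small, and 2 members changed at least 1.5-fold, where 21.3% of all genes did.

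By role, 27 of 32 small subunit genes, 38 of 42 large subunit genes and all 3 stalk genes were lower. Rps27a, made as a fusion of ubiquitin with a small subunit protein, had the largest fall. It stood at 195 and 165 scaled CPM in control, 195 and 208 in KO cells and 139 and 109 with H-151. The KO + H-151 libraries were below all others, and the change against KO was -0.71 ± 0.10 (adjusted p = 2.96e-05), to 61.4% of the KO mean. Ubb, which encodes ubiquitin alone, had a change of 0.09 ± 0.08 (adjusted p = 0.358). Rps16, a small subunit gene, stood at 206 and 181 in control, 195 and 210 in KO cells and 129 and 134 with H-151. Control and KO overlapped and KO + H-151 was lower than both, with a change of -0.62 ± 0.07 against KO (adjusted p = 5e-06).

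Rpl7a, a large subunit gene, stood at 249 and 263 in control, 290 and 288 in KO cells and 204 and 189 with H-151. Its groups were ordered KO, control, KO + H-151 with no overlap, and its change against KO was -0.56 ± 0.07. Rps23 (-0.53 ± 0.10), Rpl23 (-0.53 ± 0.11), Rps7 (-0.51 ± 0.08), Rpl30 (-0.50 ± 0.09) and the X-linked Rps4x (-0.49 ± 0.08) completed the 8 largest falls, all past the threshold. Rpl23 and Rps7 are, with Rpl5 and Rpl11, known to bind MDM2 when ribosome assembly is disturbed. Rpl5 (-0.39 ± 0.09) and Rpl11 (-0.29 ± 0.07) fell as well, although neither fall was called without KO replicate 2. The stalk genes, whose proteins recruit the elongation factors, fell too, with changes of -0.41 (Rplp0), -0.25 (Rplp1) and -0.28 (Rplp2). The calls of Rplp1 and Rplp2 were lost without KO replicate 2, and that of Rplp1 also without KO + H-151 replicate 1.

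Other members followed the same direction. Rps6, the substrate of S6 kinase, fell by 0.43 ± 0.14 from a mean of 17.9 ± 0.878 scaled CPM in KO to 13.1 ± 2.66 (SD, n = 2), from 179 to 287 reads a library, and lost its call without either KO library or KO + H-151 replicate 2. Rps19, the gene mutated most often in Diamond-Blackfan anaemia, fell by 0.30 ± 0.07, and Rpsa, also known as a laminin receptor, by 0.22 ± 0.06. Rpl10, which completes the large subunit late in assembly, fell by 0.45 ± 0.08 and Rpl38 by 0.28 ± 0.07. The calls of Rps19, Rpl4 and Rpsa were lost without KO replicate 2, those of Rpl22 and Rps3 without either KO library, and that of Rpl38 without KO replicate 1. That of Rpsa was also lost without KO + H-151 replicate 1. The 7 members named for their rises in KO (Rps24, Rpl13a, Rpl39, Rps12, Rps7, Rpl34 and Rps3) were all lower in KO + H-151 than in KO, with changes of -0.51 to -0.28.

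The count moved with the scaling. With total-count scaling 41 members were lower and with quantile normalization 29, where 14.1% and 16% of all genes were lower. Median scaling gave 64 (19.9% of all genes), edgeR 69 (21.2%) and DESeq2 65 (18.5%). The members' median was -0.20 with total-count scaling and the median of all genes 0.18, so that the members' median minus that of all genes was -0.37 there, -0.38 as deposited and -0.21 with quantile normalization. Across 3 scalings 26 of the 69 remained called, and across the 6 fits that left out a library each 46 remained, with 47 called without KO replicate 2.

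**Figure D3:**
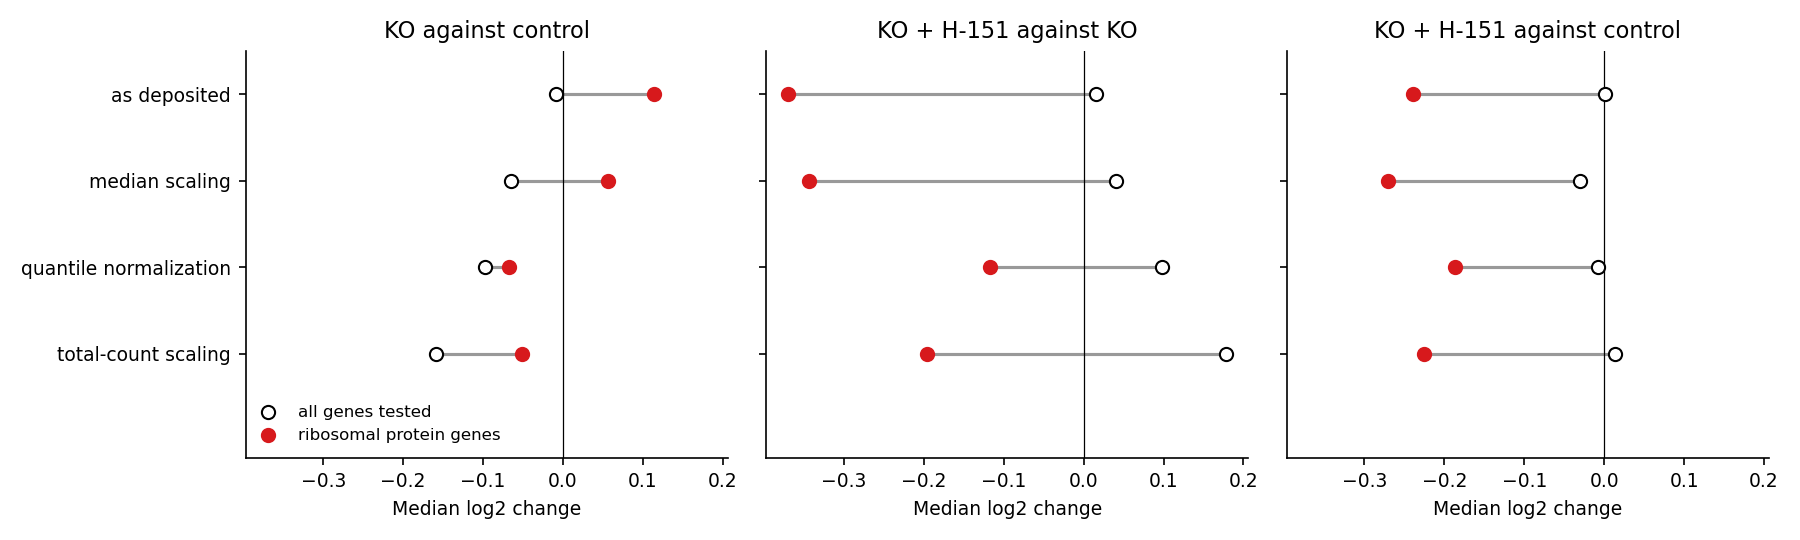
Median log2 change of the 83 ribosomal protein genes (filled) and of all 13648 genes tested (open) in each comparison, with values as deposited and under 3 other scalings. In KO against control the members' median changes sign with the scaling, from 0.11 as deposited to -0.07, whereas in both comparisons of KO + H-151 it stays below 0 and below that of all genes.

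The macrophage and adipocyte markers moved with the treatment, and those of melanocytes and Schwann cells with the groups. All 8 macrophage markers and all 5 adipocyte markers were higher in KO + H-151 than in KO, with median log2 changes of 1.19 and 1.53, and the fibroblast sum was lower (4 of its 9 genes higher, 5 lower). The 6 listed of 7 melanocyte and Schwann cell markers summed to 46.1 and 38.3 scaled CPM in control, 117 and 133 in KO, and 28.1 and 25.5 with H-151. Of these 6, 3 were higher and 2 lower in KO against control, and 2 higher and 2 lower with H-151 against KO. The 5 endothelial markers summed to 12.82 and 11.96 scaled CPM in control, 9.054 and 9.197 in KO, and 14.76 and 12.51 with H-151. Their sums were lowest in KO, while control and KO + H-151 overlapped. Of these 5, 1 was higher and 3 lower in KO against control, and 2 higher and 0 lower with H-151 against KO. The 1 listed of 5 keratinocyte markers stood at 7.69 to 10.97 over the 6 libraries. The part of these shifts in the levels of ribosomal protein genes was not tested.

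The 14 members that were not lower with H-151 comprised 5 of the 6 paralog-type genes and 9 others. The paralog-type genes had a median change of -0.00 against KO. Rps27l, a p53 target, stood at 210 and 220 scaled CPM in KO and 213 and 204 with H-151 (-0.05 ± 0.06), while its partner Rps27 fell from 250 and 263 to 181 and 188 (-0.47 ± 0.06, adjusted p = 2.01e-05). Rps4l stood at 41.6 and 38.8 in KO and 43.1 and 46.1 with H-151 (0.14 ± 0.09), while Rps4x fell from 129 and 135 to 88.0 and 99.99. Rpl39l was at 32.0 and 32.8 in KO and 34.6 and 32.1 with H-151 (0.04 ± 0.10), and its partner Rpl39 fell by 0.36 ± 0.07. The libraries of these 3 paralogs overlapped between the groups for Rps27l and Rpl39l and not for Rps4l.

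Rpl7l1, whose protein acts in ribosome assembly, had a change of -0.15 ± 0.09 (adjusted p = 0.188) beside -0.38 ± 0.06 for Rpl7. Rpl36al, at 54 to 149 reads a library, had a change of 0.44 ± 0.21 (adjusted p = 0.103) beside -0.38 ± 0.07 for Rpl36a. Rpl22l1 was the exception, with a fall of 0.38 ± 0.07 (adjusted p = 0.000499) that exceeded the 0.19 ± 0.06 of Rpl22. The differences in response between paralogs and partners were not tested. With quantile normalization Rps27l and Rps4l were called higher, at 0.18 and 0.24, where 26% of all genes were higher, and with total-count scaling Rps4l and Rpl36al, at 0.32 and 0.59, where 35% were.

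Of the other 9, Rps3a1, at 46 to 67 reads a library, had a change of -0.36 ± 0.20, and Rps15a of -0.20 ± 0.08 (adjusted p = 0.073). Rps20, Rps9, Rps10, Rpl3, Rpl6, Rpl13 and Rpl32 had changes of -0.16 to -0.06, and their KO + H-151 libraries overlapped the KO libraries. The replicates disagreed for several of them: Rps20 stood at 1092 and 1433 scaled CPM in the KO + H-151 libraries, beside 1410 and 1380 in KO. Rpl32 stood at 707 and 922, beside 857 and 846. For both genes replicate 1 was below and replicate 2 above the KO libraries.

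**Figure D4:**
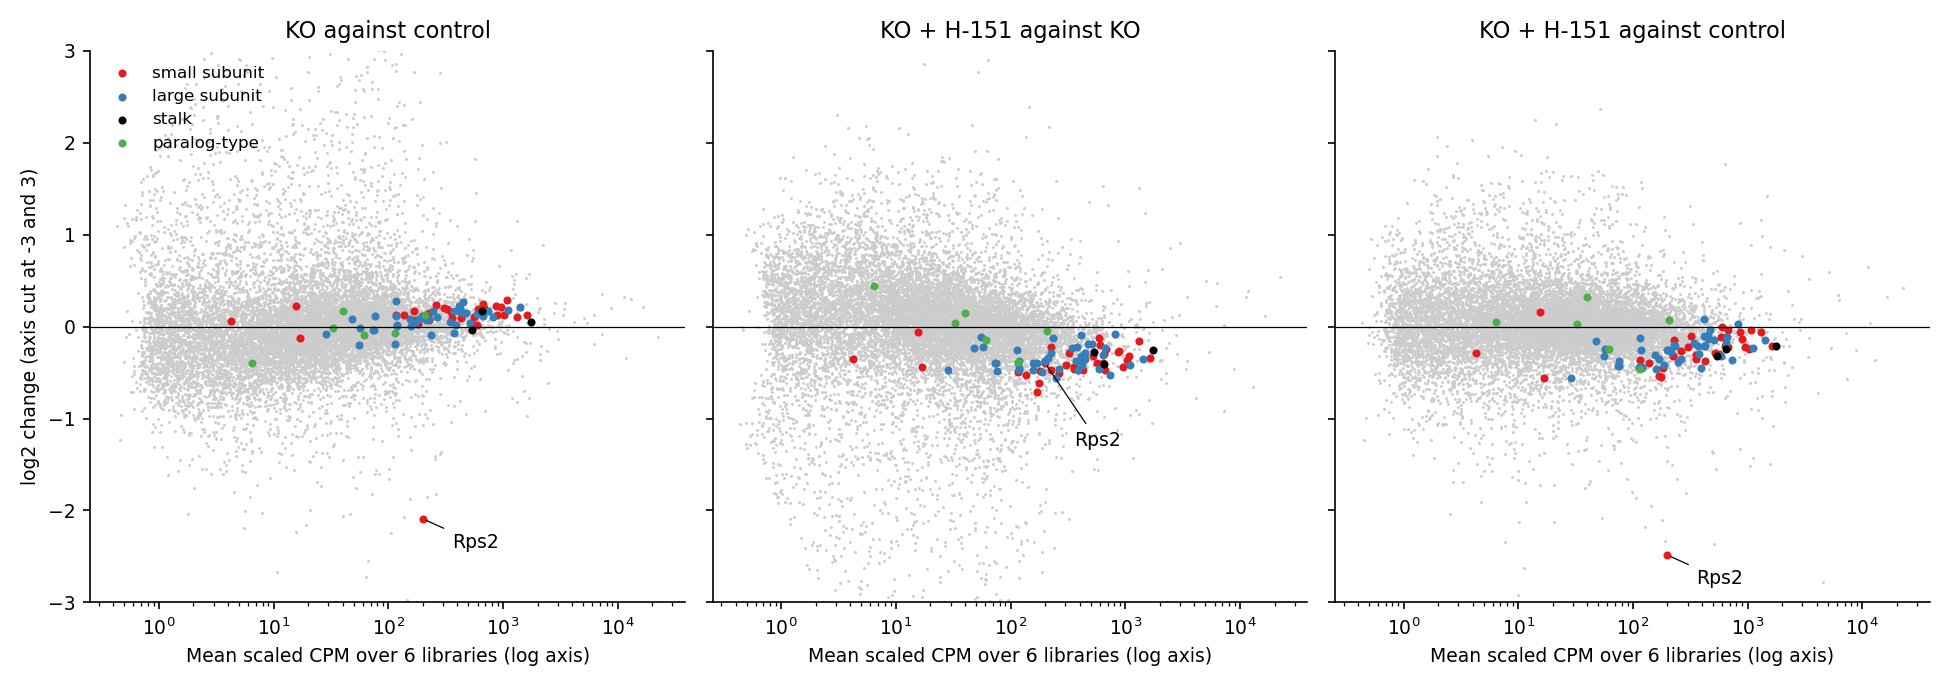
Log2 change against mean scaled CPM (log axis) for all 13648 genes tested (grey) and the ribosomal protein genes coloured by class, in the 3 comparisons; 131, 157 and 2 genes lie outside the limits of -3 and 3. In KO against control Rps2 lies apart at -2.09; in KO + H-151 against KO the members lie between -0.71 and 0.44, 80 of them below 0.

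Against control, the members in KO + H-151 cells were lower as well, by less. Of the 83 members 49 were lower, where 11.4% of all genes tested were lower, and 1 was higher, where 11.5% were. The median log2 change was -0.24, against 0.00 over all genes, and both KO + H-151 libraries were below both controls for 63 members (29.5% of all genes). Among the other genes at 100 scaled CPM or more the median was -0.06 and 24.8% were lower, beside 42 of 69 members. This comparison shares its libraries with the other comparisons. Of the 83 members 48 were lower than both KO and control, 21 lower than KO alone, 1 lower than control alone (Rpl6, chosen after its values were seen) and 13 lower than neither. The shares of all genes with these joint patterns are not given here, so the joint counts describe the members without a background.

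After Rps2 the largest falls against control included those of Rps6 (-0.56 ± 0.14), Rpl10a (-0.56 ± 0.10), Rps16 (-0.55 ± 0.07), Rps27a (-0.54 ± 0.10), Rpl28 (-0.46 ± 0.08) and Rpl22l1 (-0.46 ± 0.07). Rpl10a, a large subunit gene, stood at 33.5 and 32.2 scaled CPM in control, 29.0 and 33.0 in KO cells and 22.5 and 21.4 with H-151. Rpl28, whose RefSeq start is shown above, stood at 178 and 169, 161 and 189, and 132 and 119. For both genes control and KO overlapped and KO + H-151 lay below. Rps4l was the gene that was higher than control: it stood at 35.0 and 36.1 in control, 41.6 and 38.8 in KO cells and 43.1 and 46.1 with H-151 (0.32 ± 0.09, adjusted p = 0.0179), and the call was lost without either control library, without KO + H-151 replicate 2 and with DESeq2.

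The count of 49 was smaller without control replicate 1, and was 11 with a prior variance that did not follow the mean level. The shares of all genes lower in these fits are not given here, so a loss over all genes is not told apart. The count of members was 45 under total-count scaling (10.9% of all genes), 37 with quantile normalization (11.2%), 55 with median scaling (13.3%), 51 with edgeR (11.6%) and 47 with DESeq2 (8.9%). Rps2 was again the sole member past the threshold with at least a 1.5-fold change, where 9.81% of all genes were. Rps6 lost its call without control replicate 2 or KO + H-151 replicate 2.

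As a share of all reads in listed genes, the members took 3.68% and 3.45% in control, 3.39% and 3.51% in KO cells and 3.07% and 3.16% with H-151. Both KO + H-151 libraries were below the 4 others, while control and KO overlapped. The group means were 3.56% ± 0.160, 3.45% ± 0.0801 and 3.11% ± 0.0618 (SD, n = 2). On the effective library size behind the deposited values the shares were 3.44%, 3.73% and 2.98%, so KO was below control by listed reads and above it by effective size, whereas KO + H-151 was lowest by both. The ratio of small subunit to large subunit reads, stalk included, ran from 0.931 to 0.960 over the 6 libraries with no separation of the groups. The 76 mitochondrial ribosomal protein genes, whose products serve the ribosome of the mitochondrion, took 0.340% of listed reads in control, 0.306% in KO cells and 0.344% with H-151. On the effective library size their shares were 0.329%, 0.331% and 0.329%, and KO was not the lowest.

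**Figure D5:**
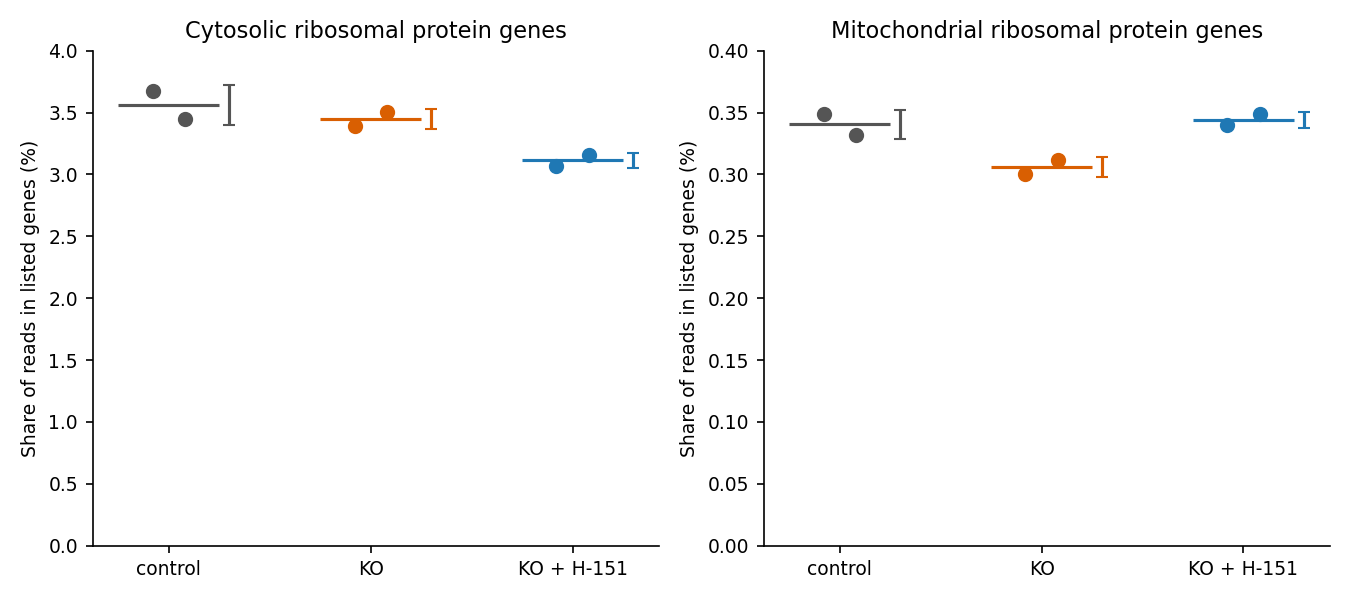
Share of the reads in listed genes taken by the 83 cytosolic (left) and 76 mitochondrial (right) ribosomal protein genes, in percent; points are libraries, lines group means and bars the SD (n = 2). The cytosolic share is lowest in KO + H-151, at 3.07% and 3.16%, and the mitochondrial share, by listed reads, is lowest in KO.

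Genes that belong to the same apparatus were examined from lists. The shares of all genes to set beside their counts are the 18.2% higher and 14.2% lower in KO, the 19.4% and 21.4% with H-151 against KO, and the 11.5% and 11.4% with H-151 against control. Fau, which encodes a ubiquitin-like protein fused to a small subunit protein, and Rack1, a scaffold on the small subunit, were both lower with H-151 than in KO (-0.37 ± 0.07 and -0.30 ± 0.07). Of 17 elongation factors and other mRNAs known for a TOP start, 12 were lower (70.6%) and 0 higher in that comparison, with a median of -0.29, where 21.4% of all genes were lower. Among them Eef1b2, an exchange factor of elongation factor 1, fell by 0.43 ± 0.07 and Btf3, part of the nascent chain complex, by 0.94 ± 0.16. Among the members themselves 11 of the 13 with a RefSeq TOP start were lower and 40 of the 48 without. With GENCODE M21 these were 10 of 12 and 58 of 69. In KO against control 0 of the 13 and 9 of the 48 were higher by the RefSeq start, and 2 of the 12 and 9 of the 69 by that of GENCODE. Of the 17 listed TOP mRNAs, 0 passed the test in either direction in KO against control (limma; 2 had an unadjusted p under 0.05).

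Of 14 snoRNA host RNAs, whose introns carry the guides for ribosomal RNA modification, 2 were higher (14.3%) and 3 lower (21.4%) in KO, beside 18.2% and 14.2% of all genes. With H-151 against KO 2 were higher (14.3%) and 6 lower (42.9%), beside 19.4% and 21.4%, and against control 0 were higher and 10 lower (71.4%), beside 11.5% and 11.4%. Zfas1 rose from 110 and 98.7 scaled CPM in control to 217 and 240 in KO and fell to 88.3 in each KO + H-151 library. Its changes were 1.12 ± 0.08 in KO and -1.36 ± 0.08 with H-151 (adjusted p = 4.67e-09 and 3.51e-10). Snhg8 likewise rose by 0.50 ± 0.07 and fell by 0.97 ± 0.07, whereas Snhg5 fell by 0.62 ± 0.10 in KO and rose by 0.36 ± 0.10. Gas5, the highest of them and itself a TOP RNA, fell by 0.54 ± 0.07 with H-151, and its change of 0.08 ± 0.07 in KO did not pass the test.

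Of 36 ribosome assembly factors 1 was higher and 4 lower (11.1%) in KO, where 14.2% of all genes were lower. With H-151 against KO 1 was higher and 9 lower (25%), near the 21.4% of all genes, and against control 0 were higher and 11 lower (30.6%), beside 11.4%. Wdr43, a factor of early small subunit assembly, rose by 0.65 ± 0.07 in KO and fell by 0.98 ± 0.07 with H-151, and Nop58, a core protein of the methylation guides, fell by 0.40 ± 0.07. Of 12 genes of RNA polymerase I and its factors, which make the ribosomal RNA precursor, 0 were higher in any comparison and 1, 2 and 3 were lower. Of 9 chaperones of single ribosomal proteins 1, Pdcd2, was higher in KO and 3 were lower with H-151. The mitochondrial ribosomal protein genes had a median change of 0.00 in KO and 0.03 with H-151 against KO, where 7 were higher and 8 lower, beside 0 and 69 of the cytosolic genes.

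Of 17 regulators of ribosomal protein genes and TOP mRNAs 2 were higher (11.8%) and 3 lower (17.6%) in KO, beside the 18.2% and 14.2% of all genes. With H-151 against KO 3 were higher (17.6%) and 6 lower (35.3%), beside 19.4% and 21.4%. Larp1, which binds TOP mRNAs, stood at 183 and 173 scaled CPM in control, 275 and 265 in KO cells and 171 and 163 with H-151. It rose by 0.60 ± 0.07 and fell by 0.69 ± 0.07 (adjusted p = 2.11e-06 and 3.12e-07). Ddit4, an inhibitor of mTORC1, ran the other way, at 75.9 and 79.8, 30.2 and 27.1, and 74.7 and 74.8. Max, the partner of MYC, rose by 0.84 ± 0.07 in KO and fell by 0.88 ± 0.07 with H-151. Myc, a known activator of ribosomal protein genes, stood at 8.97 and 12.2 in control, 11.4 and 10.6 in KO cells and 6.14 and 5.50 with H-151, a fall of 0.81 ± 0.17 with H-151 (adjusted p = 0.000975). Against control, the changes of Larp1 and Max in KO + H-151 were -0.09 ± 0.07 and -0.04 ± 0.07, and that of Myc was -0.75 ± 0.17 (adjusted p = 0.00367).

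From replicate 1 to replicate 2, most members shifted down in control and up in KO. The median absolute log2 difference between the replicates was 0.08 in control, 0.07 in KO cells and 0.12 with H-151, against 0.12, 0.11 and 0.13 over all genes. In control 67 of the 83 members were lower in replicate 2, with a median difference of -0.06, and in KO 61 were higher in replicate 2, with a median of 0.05. In KO + H-151 42 were higher and 41 lower, from -0.40 for Rpl23 to 0.72 for Rps10. Of the 34 members with at least 50% of the 3′ end shared, 28 were lower with H-151 than in KO, and of the other 49 members 41 were, with medians of -0.38 and -0.34. In KO against control 1 of the 34 and 11 of the 49 were higher, and in KO + H-151 against control 24 of the 34 and 25 of the 49 were lower. The part of shared 3′ ends in these counts was not tested.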

How the data were processed

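Messenger RNA was measured by QuantSeq 3′ mRNA-seq in 6 libraries (per the labels' protocols, in which H-151 appears once as H-15). STAR 2.5.3a, featureCounts, edgeR and mm10 are listed in the submitters' processing notes; the annotation, the strand setting and any filter are not given in the sources used here. Values in the deposited table are a signal, CPM scaled to an effective library size: every value was a whole multiple of 1 read within 0.0006, so whole reads were recovered. The plan had assumed plain CPM, and the test was kept.

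Genes with at least 1 scaled CPM in 2 libraries (13648; 58 were not tested) were fitted on log2(scaled CPM + 1) with limma 3.58.1 in R 4.3.3 with a trended prior, 1 mean per group (3 residual degrees of freedom, 15.7 after moderation). Changes are differences of group means with their SE, and understate those of low genes. P-values were adjusted over all genes tested (Benjamini-Hochberg, threshold 0.05). EdgeR 4.0.16 and DESeq2 1.42.0 on the recovered reads, pseudocounts of 0.25 and 4, filters, scalings, replicate terms and left-out libraries were alternatives. The fit was also run on simulated reads in which few genes changed, and that run does not bear on the dependence on the scaling. The members, lists and rules were chosen with earlier results of these data known. Named were, per comparison, up to 8 members with the largest rise and fall past the threshold, the 5 highest, the paralog-type members with their partners, preset members and the 4 listed genes nearest to Rps2. Some genes that these rules name are not reported here. Of each other list the 3 genes with the smallest p per comparison and the highest gene could be named. Positions are from GENCODE M21 on GRCm38, the mm10 build.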

Additional observations from a re-analysis of the deposited data

How the results depend on the processing

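The fall of Rps2 against control, in KO as with H-151, kept its direction and its call under every alternative run. The counts of members moved with the scaling, the prior and the libraries used. Counts printed here or above without the share of all genes in the same fit show only how the calls moved. They are not a result about the members. In KO against control, 12 higher became 3 with median scaling, 0 with quantile normalization, total-count scaling, centring on ribosomal protein genes or no trend, 23 in a fit of the 2 groups alone and 28 with the crossed replicate numbers; 1 lower became 2, 7, 9 and 3 under the 4 scalings in this order and 3 with crossed numbers. In KO + H-151 against KO, 69 lower became 29 (quantile), 41 (total-count) and 1 (centred), and 0 higher became 2, 2 and 12, or 1 with crossed numbers. In KO + H-151 against control, 49 lower became 3 (centred) and 11 (no trend), and 1 higher became 3 (centred) or 0 (no trend, DESeq2). At least 1.5-fold changes were called for 1, 2 and 1 members in the 3 comparisons.

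With 1 library left out, the counts ran from 0 to 24 higher and stayed at 1 lower in KO against control, from 0 to 1 higher and 47 to 71 lower in KO + H-151 against KO, and from 0 to 4 higher and 24 to 46 lower in KO + H-151 against control. Where a group was left with 1 library, that library is assumed to vary like the other groups. The share of reads ran from 3.45% to 3.68% in control, 3.39% to 3.51% in KO cells and 3.07% to 3.16% with H-151; without the 5 highest members it was 2.81%, 2.71% and 2.44%, and on the effective library size 3.73% in KO cells and 2.98% with H-151.

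The labels do not say that replicate numbers pair libraries, and the deviations of same-numbered libraries correlated at -0.07, 0.15 and -0.13 over all genes and at -0.23, 0.50 and -0.41 over the members. With the replicate block 10 members were higher and 1 lower in KO, 66 lower with H-151 against KO, and 1 higher and 48 lower against control.

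Centring gives each library the same median log2 level of the members, and genes whose falls were smaller than the resulting shift change sign. In KO + H-151 against KO these included Rps2 (0.027), Rpsa (0.20), Rplp0 (0.0087), Rplp1 (0.17), Rplp2 (0.14), Rpl5 (0.029), Rpl11 (0.13), Rps19 (0.12), Rpl13a (0.021), Rpl38 (0.14), Rps27l (0.38), Rpl7l1 (0.27), Rpl7 (0.046), Rpl22l1 (0.037), Rpl22 (0.23), Rpl36a (0.044), Rpl39 (0.063), Rps14 (0.082), Rpl4 (0.064), Rpl37 (0.0022), Rps24 (0.10), Rpl34 (0.098), Rps3 (0.14), Fau (0.051), Rack1 (0.12) and Wwtr1 (0.033). Against control they included Rplp0 (0.028), Rpl7 (0.062), Rpl36a (0.061), Rpl37 (0.035), Rps12 (0.045) and Rps7 (0.0023). Neither list holds every member that changed sign, and the members' median itself became positive, at 0.05 against KO and 0.03 against control. With quantile normalization Rpsa (0.020), Rplp1 (0.026), Rps27l (0.18), Rpl22 (0.060) and Rps24 (0.036) were among those that changed sign in KO + H-151 against KO. In KO against control they included Rpl37 (-0.088) and Rps3 (-0.00059). That last list is far from complete, since the members' median itself became negative there. It was -0.07 with quantile normalization and -0.05 with total-count scaling, against 0.11 as deposited. The cause was not tested.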

Other observations

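Rows named as pseudogenes of ribosomal proteins lie outside the 83 genes. Of 18 such rows 1 was higher (5.56%) and 1 lower (5.56%) in KO against control, beside 18.2% and 14.2% of all genes tested. In KO + H-151 against KO 0 were higher and 1 was lower (5.56%), beside 19.4% and 21.4%. Their median log2 changes in these comparisons were 0.05 and -0.09. The row that was lower in both was Rps26-ps1, a transcribed processed pseudogene. It stood at 17.8 and 17.7 scaled CPM in control, 6.18 and 8.69 in KO and 5.29 and 4.50 in KO + H-151, from 250, 245, 71, 102, 81 and 72 reads. No library of the KO genotype reached the control level, with a log2 change of -1.17 ± 0.17 in KO (limma, adjusted p = 5.09e-05) and a further -0.50 ± 0.17 with H-151 (adjusted p = 0.0269). Its parent Rps26, a small subunit gene, stood at 1067 and 1034 in control, 1145 and 1146 in KO and 847 and 936 in KO + H-151, with a change of 0.12 ± 0.07 in KO (adjusted p = 0.185). With H-151 Rps26 was lower than in KO (-0.36 ± 0.07, limma adjusted p = 0.000497) and than in control (-0.24 ± 0.07, adjusted p = 0.0196). The row that was higher in KO was Rpl31-ps6, at 0.356 and 0.36 in control and 1.31 and 1.11 in KO. Its control levels lay under the 1 scaled CPM of the filter, with 1 read worth 0.0712 and 0.0721 in those libraries. The call thus rests on few reads near the floor, in a row that met the filter in the group where it is high.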
